A study of Homo sapiens with 14 samples.

Results

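R-loops are 3-stranded structures in which a transcript pairs with its DNA template and leaves the other DNA strand single. They form during transcription, RNase H enzymes remove them by cutting the RNA of the hybrid, and long-lived R-loops are known as a source of replication stress and DNA breaks. SF3B1, a component of the U2 snRNP that recognizes the branch site of introns, is recurrently mutated at K700 in chronic lymphocytic leukemia. The regions described here are those with a peak in all 4 untreated DRIP-seq libraries of Nalm-6 cells, whatever the SF3B1 genotype. In each library, a peak of the region shared no base with the peaks called after RNase H digestion.

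Nalm-6 is a human pre-B leukemic cell line. WT cells carried SF3B1 K700K and MT cells SF3B1 K700E in isogenic lines, and no other allele is named in the labels for these groups. DNA was purified from cells without crosslinking, cut with the restriction enzymes HindIII, EcoRI, BsrGI, XbaI and SspI, and immunoprecipitated with the S9.6 antibody, which binds DNA-RNA hybrids. A share of the cut DNA was first digested with RNase H and is called RNH1-treated. Untreated DNA gave 2 WT and 2 MT libraries, and RNH1-treated DNA gave the same numbers. The labels do not say whether replicates came from separate cultures or clones, so the spread between these libraries may be technical. P-values from limma rest on this spread pooled largely over tested regions of similar mean fold enrichment, not on that of each region alone.

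Peaks of the 4 untreated libraries on chromosomes 1 to 22 and X were merged into 414355 regions. An untreated peak counted as bona fide if no base of it was covered by RNH1-treated peaks of its own genotype and replicate number. A region was kept when it overlapped a bona fide peak of all 4 untreated libraries, and 7400 regions were kept, 1.79% of the merged regions. The regions were therefore chosen by the presence of measured peaks, and that presence is not a finding. A peak was present in all 4 untreated libraries in 42501 regions, of which 17.4% were kept. Among these 42501 regions, 71.5% were bona fide in WT replicate 1, 49.0% in WT replicate 2, 31.0% in MT replicate 1 and 30.8% in MT replicate 2. In the same order, the RNH1-treated lists held 34857, 77391, 201117 and 198158 peaks, so both WT lists were shorter than both MT lists, and the untreated lists held 123582, 130928, 253744 and 295970 peaks.

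The rule compared single peaks with the RNH1-treated list of their own library, so contacts of whole regions with these lists were largely fixed by it and are given as a description. No RNH1-treated peak of any library touched 7098 of the 7400 regions, or 95.9%. The other 302 regions shared a base with an RNH1-treated peak of at least 1 library, although each held bona fide peaks of all 4. Most of these contacts came from the MT lists, with 168 regions for MT replicate 1 and 163 for MT replicate 2, against 9 and 69 for WT. The median distance from a region to the nearest RNH1-treated peak was 26.6 kb in WT replicate 1, 11.7 kb in WT replicate 2, 4.26 kb in MT replicate 1 and 4.23 kb in MT replicate 2. At the border of the rule, 18 regions were kept although an RNH1-treated peak lay within 50 bp of a bona fide peak, with median fold enrichments of 4.06, 3.86, 3.60 and 3.75 in WT replicate 1, WT replicate 2, MT replicate 1 and MT replicate 2. Just outside it, 66 regions failed in 1 library by an overlap of at most 50 bp, with median fold enrichments of 4.10, 4.26, 4.26 and 4.18 in the same order.

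The sequences of regions at the top of their annotation class, and of the region with the largest MT over WT difference, were read from the GRCh38 reference. The edges are shown first, because restriction sites were found there throughout the set. Each line gives 40 bases of the plus strand, 20 outside and 20 inside the edge of the region, with the recognition site in capitals. The first is the left edge of the region in MICAL2 (SspI), the next the right edge of the region in DIAPH3 (SspI), then the right edges of an intergenic region on chromosome 16 (HindIII) and of an intergenic region on chromosome 11 (XbaI).
chr11:12265653-12265692: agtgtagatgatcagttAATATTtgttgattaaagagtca
chr13:59988247-59988286: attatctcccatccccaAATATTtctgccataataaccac
chr16:65820430-65820469: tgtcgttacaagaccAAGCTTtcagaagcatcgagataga
chr11:109241079-109241118: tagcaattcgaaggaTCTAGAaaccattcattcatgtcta

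The interior of the last 3 of these regions is shown by 300 bases around the summit, with runs of at least 3 G or 3 C in capitals, since G-rich stretches of the displaced strand are known to favor R-loops. The 1st window lies in an intron of DIAPH3, the 2nd is intergenic, and the 3rd is the intergenic region with the largest value in MT over WT. GC content was 35.3%, 38.3% and 37.3% in this order. Runs of G and C numbered 2 and 2 in DIAPH3, 3 and 5 in the intergenic window on chromosome 16 and 3 and 0 in that on chromosome 11. None of these 3 windows reached the GC content of the genome, 40.9%. The summit windows of the highest promoter and exon regions, in MICAL2 and TRIB2, are not shown and lay above it, with 42.0% and 47.7%.
chr13:59987945-59988244: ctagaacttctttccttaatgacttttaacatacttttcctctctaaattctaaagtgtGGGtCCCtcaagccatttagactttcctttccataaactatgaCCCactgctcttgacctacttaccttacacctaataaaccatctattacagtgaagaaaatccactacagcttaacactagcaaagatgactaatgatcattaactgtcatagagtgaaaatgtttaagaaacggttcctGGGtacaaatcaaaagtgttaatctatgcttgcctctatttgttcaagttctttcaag
chr16:65820150-65820449: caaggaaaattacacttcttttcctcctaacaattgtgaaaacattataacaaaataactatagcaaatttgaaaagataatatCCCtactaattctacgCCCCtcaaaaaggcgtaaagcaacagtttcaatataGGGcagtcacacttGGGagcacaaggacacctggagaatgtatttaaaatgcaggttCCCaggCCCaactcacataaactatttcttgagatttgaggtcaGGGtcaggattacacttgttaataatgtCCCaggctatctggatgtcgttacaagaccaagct
chr11:109240724-109241023: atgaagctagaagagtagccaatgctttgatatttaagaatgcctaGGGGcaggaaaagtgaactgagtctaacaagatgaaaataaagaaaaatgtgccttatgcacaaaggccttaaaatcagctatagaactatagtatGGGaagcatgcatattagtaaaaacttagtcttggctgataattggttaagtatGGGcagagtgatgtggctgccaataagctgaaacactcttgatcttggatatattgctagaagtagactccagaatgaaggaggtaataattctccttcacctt

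Such runs were found in nearly every window of this size. A run of at least 3 G or 3 C was present in the 300 bases around the summit in 98.8% of the 7400 regions and in 98.7% of the other 35101 regions with a peak in all 4 untreated libraries, with a median of 5 runs in both. Motifs of 4 such runs on 1 strand with 1 to 7 bases between them, which can fold into G-quadruplexes, were found in 412 regions, or 5.57%, against 6.12% of the other regions with a peak in all 4 untreated libraries and 4.11% of all merged regions. Counted per length, there were 70.9 motifs per Mb in the shared bona fide regions and 76.1 per Mb in all merged regions. Median GC content was 40.1%, close to the 40.9% of the genome, with the central 90% of regions between 32.7% and 48.8%. A GC content of at least 50% with a ratio of observed to expected CpG of at least 0.6, as in CpG islands, was found in 19 regions. This share was 0.257%, against 0.131% of the other regions with a peak in all 4 untreated libraries and 0.298% of all merged regions. Regions bona fide in both WT libraries without an MT peak had a median GC content of 34.2% over 22690 regions, and regions bona fide in both MT libraries without a WT peak one of 42.4% over 51630 regions. The shared regions lay between these sets. Around the summit, GC content averaged 41.7% within 50 bp and 39.5% at 1.9 to 2 kb.

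The edges of the regions coincided with restriction sites far more often than single positions of the genome do. Of 14800 edges, 6011 lay within 5 bp of the centre of a recognition site, or 40.6%. At the mean density of 1.97 sites per kb, no more than 2.16% of positions in the genome lie so close. The centre of the site was 2 bp inside the edge in 28.8% of edges and at the edge itself in 11.6%, while sites between 50 and 200 bp inside the edge were found at 0.00579% of edges per bp, against 0.197% per bp over the genome. SspI, which cuts in the middle of its site, accounted for 1726 of these edges, HindIII for 1583, BsrGI for 1122, EcoRI for 863 and XbaI for 717. HindIII gave 26.3% of the edges at sites and 14.9% of the sites in the genome, whereas SspI gave 28.7% of edges and 41.2% of sites. At least 1 edge was at a site in 5171 regions (69.9%) and both edges in 840 regions (11.4%). The same held for 67.9% and 11.4% of the other regions with a peak in all 4 untreated libraries, and for 56.2% and 3.70% of all merged regions, so edges at sites were not particular to the shared bona fide regions.

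**Figure D1:**
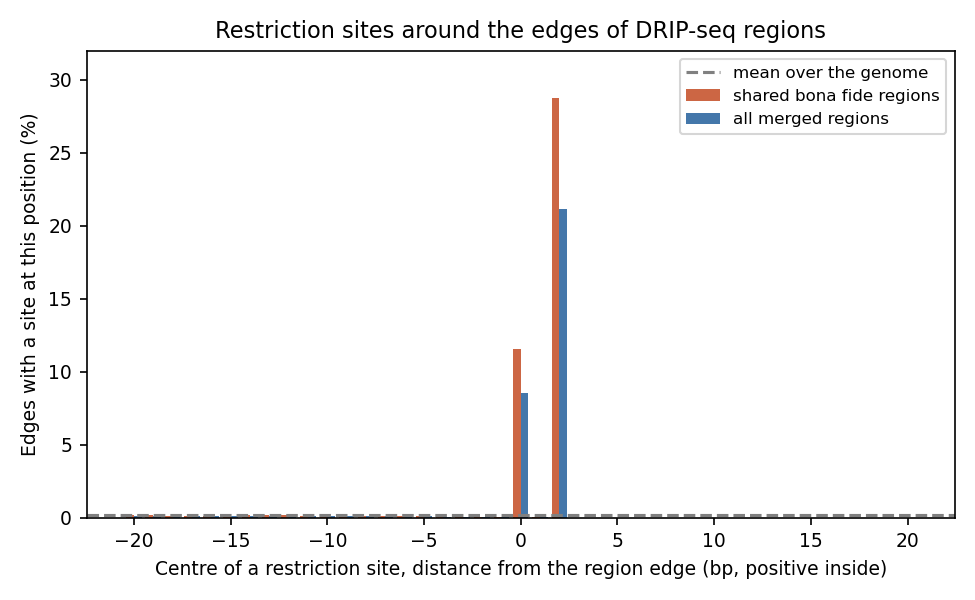
Share of region edges (y axis, %) with the centre of a HindIII, EcoRI, BsrGI, XbaI or SspI site at each distance from the edge (x axis, bp, positive inside the region), for shared bona fide regions and all merged regions, with the genome mean as a dashed line. The bars at 2 bp and 0 bp reach 28.8% and 11.6% in the shared bona fide regions.

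Length was also set beside the cut fragments. The shared bona fide regions had a median length of 766 bp, from 275 to 3246 bp, and covered 6.34 Mb in all. The restriction fragment that holds the midpoint had a median length of 1143 bp, and at least 90% of the region lay inside that single fragment in 89.0% of regions. From the 1476 shortest to the 1482 longest regions, the median fragment grew from 762 to 1718 bp and the median GC content from 38.6% to 41.8%. A longer region inside a single fragment needs a longer fragment, so the growth in fragment length was largely fixed in advance. Median lengths of region and fragment were 901 and 1304 bp in the other regions with a peak in all 4 untreated libraries. They were 467 and 1234 bp in all merged regions. Where the hybrid ended inside these fragments was not tested. Summits of the 4 libraries were spread over a median of 258 bp per region. Summits of the WT libraries lay a median of 93 bp apart and those of the MT libraries 72 bp apart, and the distance between genotypes was 123 bp.

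In terms of annotation, the shared bona fide regions were spread over the genome much like its bases. Introns held 3218 regions (43.5%), intergenic sequence 2470 (33.4%) and promoters, taken as 3 kb to each side of a transcript start, 1320 (17.8%, 95% Wilson interval 17.0% to 18.7%). Other exons held 241 regions, 3′ UTRs 126, 5′ UTRs 14 and the 300 bp downstream of transcripts 11. Since longer regions touch promoters more often, midpoints were also classified. Midpoints lay in promoters in 15.9% of the shared bona fide regions and 14.5% of all merged regions, and promoters held 17.7% of the bases of the genome. The median distance from the midpoint to the nearest start of a protein-coding gene was 101 kb. Such a start lay inside 31 regions, or 0.419%, against 0.219% of the other regions with a peak in all 4 untreated libraries and 0.192% of all merged regions.

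**Figure D2:**
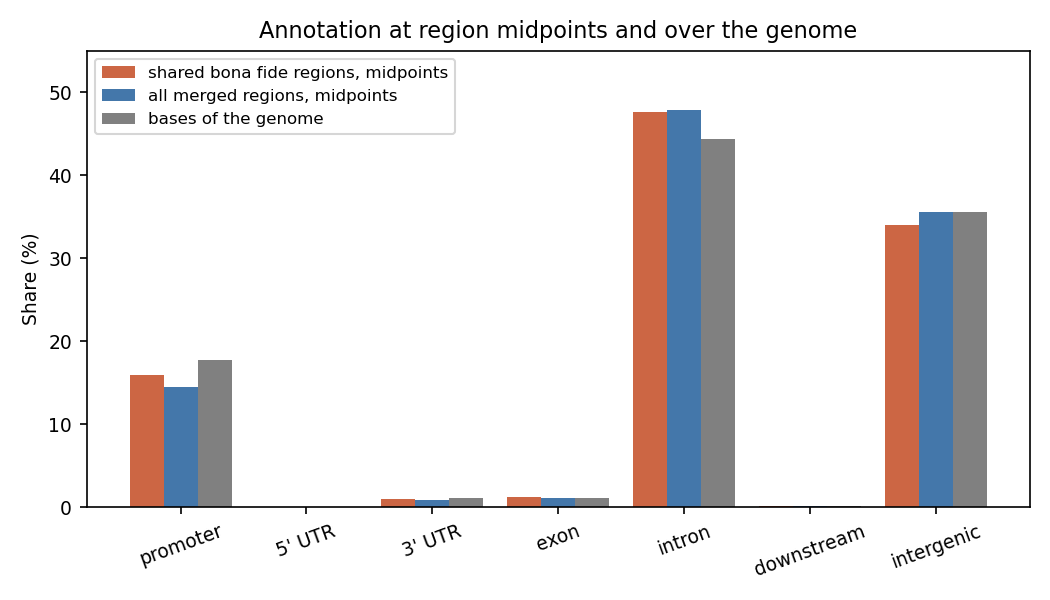
Share (y axis, %) of midpoints of the 7400 shared bona fide regions, of midpoints of all 414355 merged regions and of bases of chromosomes 1 to 22 and X in each annotation class (x axis). Promoters hold 15.9%, 14.5% and 17.7%, in this order, and introns are the largest class in all 3.

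The density of regions was 2.54 per Mb over chromosomes 1 to 22 and X. It was highest on chromosome 13, with 3.10 per Mb, and on the autosomes lowest on chromosome 19, with 1.33 per Mb, and chromosome 22, with 1.38 per Mb. Chromosomes 19 and 22 have a GC content of 47.9% and 47.0% and hold 1.30 and 1.40 restriction sites per kb, against 38.6% and 2.23 per kb on chromosome 13. Chromosome X held 0.51 regions per Mb and 2.94 regions per Mb with a peak in all 4 untreated libraries. The share of those regions that were bona fide in all 4 was 17.3% on chromosome X and between 16.1% and 20.5% on the autosomes. The chromosomes thus differed in how many regions had peaks in every untreated library more than in the share of these that was bona fide in all 4.

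Protein-coding genes that held a shared bona fide region, counted over the gene body and 3 kb before its start, numbered 2665 of 19970, or 13.3%. Most of these genes, 1968, held 1 region, 651 held 2 to 4 and 46 held 5 or more. Genes with a region had a median length of 131 kb against 27.5 kb over all protein-coding genes. A region was found in 277 of 322 genes of 500 kb or more (86.0%), in 1307 of 3339 genes of 100 to 500 kb (39.1%) and in 178 of 8352 genes under 20 kb (2.13%). The counts below follow this dependence on length.

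The 10 genes with the most regions were longer than 500 kb. EYS, an extracellular matrix protein of photoreceptors, held 12 regions over 1987 kb, with medians of fold enrichment of 4.56 and 4.95 for WT and of 4.13 and 4.49 for MT. PTPRD, a receptor tyrosine phosphatase, held 9 regions over 2299 kb. BANK1, a scaffold protein of B cell receptor signaling, held 8 regions over 664 kb, or 1.21 per 100 kb against 0.254 per 100 kb over the genome. Also with 8 regions were PRKG1, a cGMP-dependent kinase, NRXN3, a neurexin, and CTNNA3, an alpha-catenin. RABGAP1L, AGBL1 and MAGI2 held 7 each. Per length, the highest values among genes of 20 kb or more were from 6.73 to 8.92 per 100 kb in MPHOSPH6, a cofactor of the RNA exosome, TRA2B, a splicing regulator, TRIB2, a pseudokinase, CTXND2 and CHIA, a chitinase. Each of these 5 genes held 2 regions, so their densities rest on small counts.

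The size of the signal was the fold enrichment at the summit, the ratio of the pileup to the local background with 1 added to each. Over the shared bona fide regions its median was 4.61 in WT replicate 1, 4.69 in WT replicate 2, 4.43 in MT replicate 1 and 4.49 in MT replicate 2, and the lowest and highest single values were 2.05 and 16.2. The median pileup at the summit was 21, 22, 23 and 28 reads over a background of 3.63, 3.74, 4.02 and 4.98 reads in the same order. With so few reads, counting error alone is a large part of a single value. The other 35101 regions with a peak in all 4 untreated libraries had medians of 4.97 and 5.09 for WT against 5.61 and 5.96 for MT. The shared bona fide regions were therefore not the strongest regions of these libraries. These medians are a description, because peaks had to be present in the same libraries to be chosen.

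**Figure D3:**
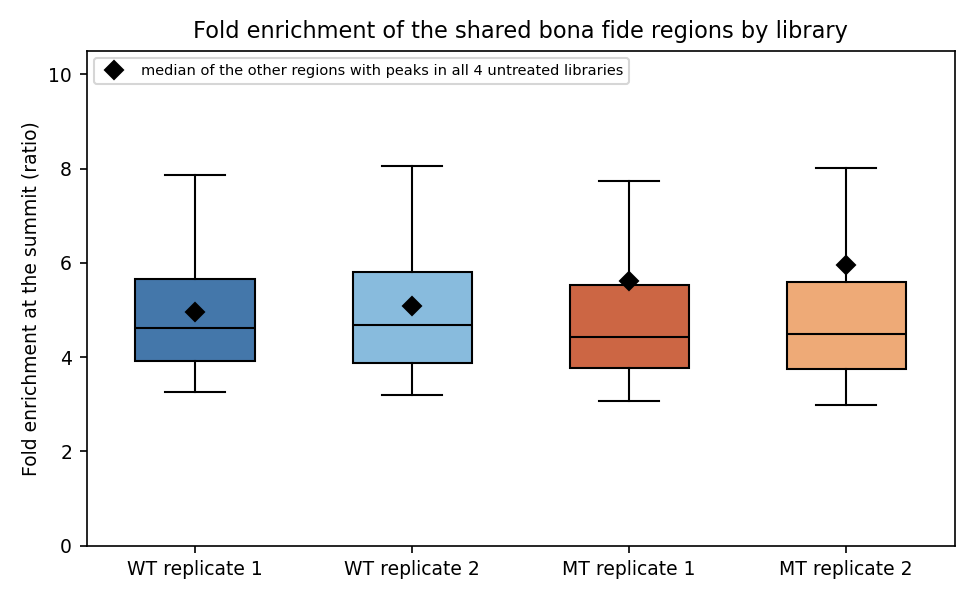
Fold enrichment at the summit (y axis, ratio) of the 7400 shared bona fide regions in each untreated library (x axis), with boxes from the lower to the upper quartile, the median as a line and whiskers at the 5th and 95th percentiles, and diamonds for the median of the other 35101 regions with peaks in all 4 untreated libraries. The diamonds lie above the median line in each library, and the gap is wider in MT (5.61 and 5.96 against 4.43 and 4.49) than in WT (4.97 and 5.09 against 4.61 and 4.69).

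The order of fold enrichment among the shared bona fide regions was alike in libraries of the same genotype and much less so between genotypes. Across the 7400 regions, Pearson's r of log2 fold enrichment was 0.74 between the WT libraries and 0.74 between the MT libraries, and from 0.19 to 0.20 for the 4 pairs of a WT and an MT library. Spearman's rho was 0.68 and 0.69 within genotypes and from 0.17 to 0.18 between them. These are correlations across regions, which share libraries, depth and base composition and are not independent replicates.

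Regions with the highest values in every library were ranked by the lowest fold enrichment of the 4 untreated libraries, leaving chromosome 8 aside. The highest of the intronic regions, chr13:59987895-59988266 in DIAPH3, a formin that nucleates actin filaments, had fold enrichments of 10.8 and 13.3 in the WT libraries and 12.2 and 10.3 in the MT libraries. The WT and MT values overlapped, and the edge shown above ends this region at an SspI site. The region chr11:58951079-58951606 in GLYATL1, an acyltransferase, followed with 11.9 and 10.3 in WT and 9.75 and 9.72 in MT. In PRSS12, a serine protease of the nervous system, chr4:118308765-118309761 had 9.25 and 9.58 in WT and 10.4 and 11.6 in MT. None of these 3 regions was called between genotypes, which took a limma adjusted p below 0.05 and a difference of at least 1.5-fold. The other intronic regions of the 5 highest lay in FRMD4A and in ERBB4, a receptor of the EGF receptor family.

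Among promoter regions the highest was chr11:12265673-12266318, at a transcript start inside MICAL2, an enzyme that oxidizes actin, where WT libraries had 11.3 and 8.80, and MT libraries 11.3 and 12.3. The promoter class is set by any annotated transcript, and the nearest start of a whole protein-coding gene lay 111567 bp away. Next came chr17:21516829-21518108 at the long noncoding RNA LINC02693, with 9.52 and 10.03 in WT and 8.86 and 8.60 in MT. The region chr12:12948520-12949617, in GPRC5D, a surface receptor of plasma cells, had 8.43 and 8.13 in WT and 8.61 and 9.72 in MT, and was 1098 bp long in a restriction fragment of 1094 bp, with both edges at sites. The region chr1:202340504-202341155 lay in UBE2T, the ubiquitin-conjugating enzyme of the Fanconi pathway, and had 8.21 and 7.90 in WT and 8.33 and 9.01 in MT. Both MT values were above both WT values in the GPRC5D and UBE2T regions, but after the centring described below the log2 differences were -0.0022 and -0.04, and neither was called.

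In exons the highest region, chr2:12722926-12723696, overlapped a 5′ UTR of TRIB2 where WT libraries had 8.33 and 10.3, and MT libraries 11.6 and 11.0. It was followed by regions in exons of noncoding RNAs on chromosome 6, of TBC1D12 and, in a 3′ UTR, of GPM6A, a neuronal membrane glycoprotein. The highest intergenic region, chr16:65820106-65820449, lay 546412 bp from CDH5, with 9.02 and 8.73 in WT and 8.86 and 9.91 in MT. The longest regions were chr2:141545201-141548446 in LRP1B, with 3246 bp, chr2:176176584-176179792 at HAGLR between HOXD genes, with 3209 bp, and chr7:78244617-78247639 in MAGI2, with 3023 bp, and their values between 3.12 and 6.14 were moderate.

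The 31 regions over the start of a protein-coding gene had a median GC content of 45.8%, and their median fold enrichment was 4.51 and 4.81 for WT, and 4.36 and 4.34 for MT. The highest by the same ranking, chosen after the values were seen, lay over the start of EIF5B, a translation initiation factor, with 6.79 and 7.02 in WT and 6.85 and 5.50 in MT. At TRA2B the values were 4.23 and 6.30 for WT against 7.71 and 9.51 for MT, a log2 difference of 0.58 (SE 0.19, limma adjusted p = 0.0164) that stayed under 1.5-fold. At OGG1, the glycosylase that removes 8-oxoguanine, also picked from its values, they were 7.47 and 8.66 for WT against 3.32 and 3.55 for MT (log2 difference -1.37, SE 0.19, limma adjusted p = 4.17e-06). In all, 7 of the 31 were called lower in MT and 2 higher, against 20.5% and 4.85% of all shared bona fide regions and 15.2% and 15.0% of all tested regions.

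Whether the strength of the shared regions differed between the genotypes was asked with limma on log2 fold enrichment, centred on the median of each library over the 42501 regions with a peak in all 4 untreated libraries. Of the 7400 shared bona fide regions, 1875 were called, 359 higher and 1516 lower in MT, or 25.3% in all, 4.85% higher and 20.5% lower. Over all 42501 regions tested, 30.2% were called, 15.0% higher and 15.2% lower. Fold enrichment was thus lower in MT in more of the shared regions, and higher in MT in fewer, than over all tested regions. The median log2 difference was -0.21 over the shared regions and 0.04 over the other regions tested. Both MT libraries lay below both WT libraries in 3473 regions (46.9%), against 35.4% of all tested regions, and above both in 1308 (17.7%), against 34.2%.

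This difference from the other regions cannot be told apart from the rule that chose the regions. A region was kept only where each untreated library had a peak there that no RNH1-treated peak of its genotype and replicate number touched. The MT lists of RNH1-treated peaks were longer. In regions bona fide in both WT libraries and neither MT library, 8813 of those tested, the median log2 difference of MT to WT was 0.27, and in the 969 regions bona fide in both MT libraries and neither WT library it was -0.65. In the 9488 tested regions that were bona fide in no library it was -0.06. Per library, the median centred log2 fold enrichment of the shared regions was -0.08 and -0.10 for WT and -0.28 and -0.32 in MT, a difference of -0.21. A two-sided exact permutation test over libraries gave p = 0.3333, and a design of 2 against 2 cannot give a smaller value. Without centring, the median difference was -0.06, and 607 shared regions were called higher and 980 lower; the median over all tested regions then stood at 0.13, so the split of calls depends on the scaling.

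**Figure D4:**
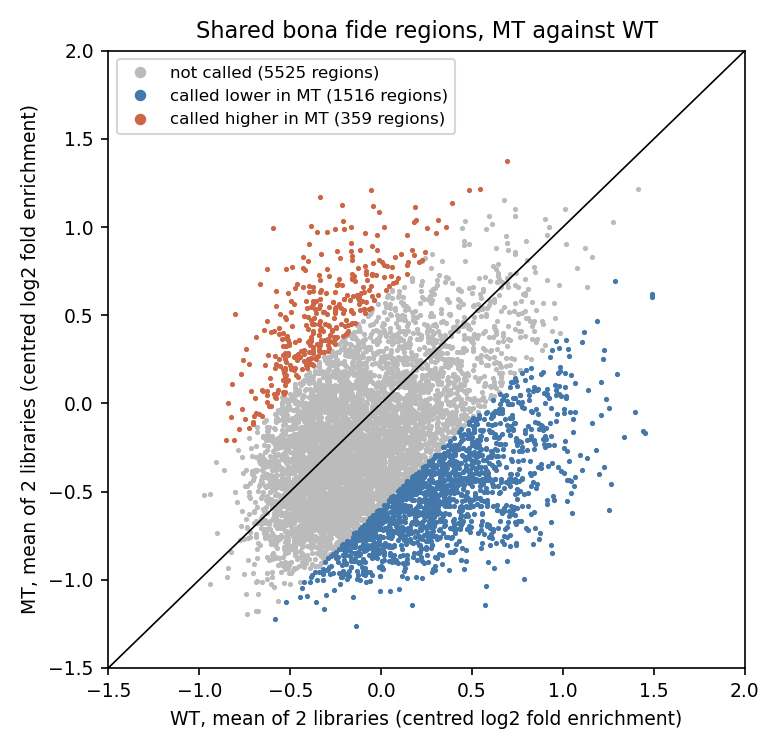
Centred log2 fold enrichment of each of the 7400 shared bona fide regions, as the mean of 2 libraries, in WT (x axis) and MT (y axis), with regions called lower in MT, called higher in MT and not called in separate colors and the line of equal values. The 1516 regions called lower outnumber the 359 called higher, and the cloud lies mostly below the line.

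Calls were counted by annotation class and base composition, as a description with no test. Over all shared bona fide regions 20.5% were called lower and 4.85% higher in MT, and over all tested regions 15.2% and 15.0%. Of promoter regions 20.2% were called lower and 4.24% higher, of intronic regions 20.5% and 4.75%, and of intergenic regions 21.2% and 5.22%. Of the 241 exonic regions 17.8% were called lower and 4.56% higher, and of the 126 regions in 3′ UTRs 15.9% and 7.94%. No region of the 14 in 5′ UTRs or the 11 downstream of transcripts was called higher, and 3 and 2 were called lower. Median GC content was 39.6% in regions called lower, 40.0% in those called higher and 40.2% in those not called. From the 1480 shared regions with the lowest GC content to the 1480 with the highest, the median log2 difference went from -0.25 to -0.16, and calls of lower from 22.8% to 18.2%. Over all tested regions in the same GC intervals, the medians were -0.10 and -0.001. Regions called higher were shorter, with a median of 613 bp, than those called lower (775 bp) or not called (771 bp).

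Among the regions called higher in MT, the largest difference was at chr11:109240601-109241098, which is intergenic and 181340 bp from C11orf87. WT libraries had fold enrichments of 3.05 and 3.53 there, and MT libraries 10.9 and 11.0 (log2 difference 1.59, SE 0.18, limma adjusted p = 3.57e-07), and its pileup was 15 and 18 reads in WT and 53 and 70 in MT. The region in an intron of ZNF385D, a zinc finger gene, had 4.10 and 3.77 in WT and 12.8 and 11.9 in MT. The region at a transcript start in GRIA4, a subunit of AMPA receptors, had 3.26 and 3.15 in WT and 9.08 and 9.53 in MT. The regions in CAST, the calpain inhibitor calpastatin, and DSCAM, a neuronal adhesion molecule, followed with log2 differences of 1.39 and 1.34. In these 5 regions the lowest MT value was well above the highest WT value.

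Among the regions called lower in MT, the intergenic region chr5:103391592-103392117, 113194 bp from MACIR, had 8.72 and 8.37 in WT and 3.10 and 2.44 in MT (log2 difference -1.78, SE 0.20, limma adjusted p = 2.87e-07), with pileups of 81 and 90 reads in WT and 26 and 30 in MT. The intergenic region chr1:188465360-188466006, 1476702 bp from PLA2G4A, had 11.6 and 12.2 in WT and 3.54 and 4.49 in MT. The intronic regions in PLEKHG7 and in BTRC, an F-box protein of a ubiquitin ligase, had log2 differences of -1.72 and -1.67. All these regions were picked as extremes of the 1875 calls.

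**Figure D5:**
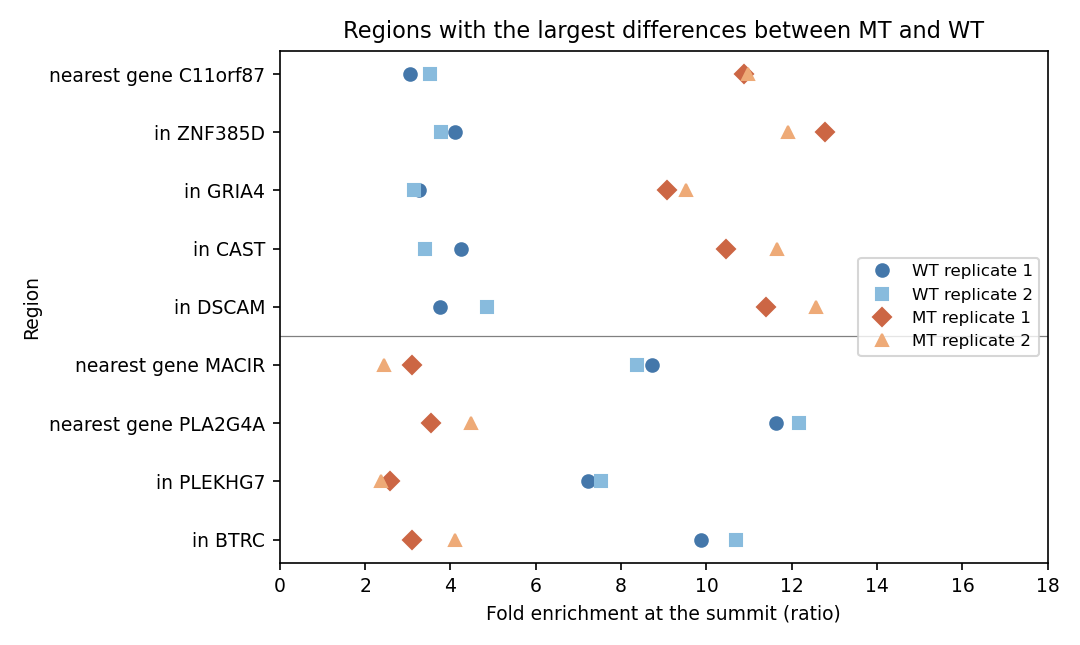
Fold enrichment at the summit (x axis, ratio) in each of the 4 untreated libraries for the 5 shared bona fide regions with the largest and 4 of the 5 with the smallest MT over WT difference among those called (y axis, named by the gene that holds the region or the nearest gene). The WT and MT values do not overlap in any row, and range from 3.05 to 4.85 in WT in the upper rows and from 2.38 to 4.49 in MT in the lower rows.

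Genes with a known part in R-loop biology or in B cells were counted from lists. Of 43 genes whose products resolve or prevent R-loops, 8 held a region (18.6%, with a median gene length of 48.6 kb), each with 1. The region at FANCD2, a Fanconi protein that acts at stalled forks, fell in MT, from 7.63 and 6.87 in WT to 3.54 and 4.298 in MT (log2 difference -1.04, SE 0.19, limma adjusted p = 0.000136). The region in ATM, the kinase of the DNA break response, was also called lower, with 6.82 and 5.79 in WT and 5.54 and 3.18 in MT, although its MT libraries were far apart. The region at UPF1, an RNA helicase of nonsense-mediated decay, had a GC content of 59.8% with values of 6.83 and 5.91 for WT, and 7.60 and 6.22 for MT. The regions in BARD1, AQR, ATR, THOC5 and WRN were not called. Of the 8 regions, 2 were thus called lower and 0 higher in MT. Over all shared bona fide regions 20.5% were called lower and 4.85% higher, and over all tested regions 15.2% and 15.0%.

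Of 38 B-lineage identity genes, 10 held 13 regions (26.3% of genes, with a median gene length of 77.25 kb). In MT, 5 of the 13 were called lower and 1 higher, against 20.5% lower and 4.85% higher over all shared bona fide regions and 15.2% and 15.0% over all tested regions. Those called lower lay in CD38, a surface glycohydrolase, EBF1 and PAX5, transcription factors of B cell commitment, SYK, the kinase of B cell receptor signaling, and BLNK, its adaptor. At EBF1 the values were 6.36 and 5.95 for WT against 3.97 and 3.39 for MT (log2 difference -0.89, SE 0.20, limma adjusted p = 0.000865), and at PAX5 they were 6.96 and 4.81 for WT against 4.37 and 3.92 for MT. Of 3 regions in RUNX1, a transcription factor of blood cells, 1 was called higher, with 3.67 and 3.10 in WT and 5.83 and 6.95 in MT. The regions in BACH2, ERG, ETV6 and RAG1 were not called.

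Common fragile site genes are very long genes that break under replication stress, and 34 of 36 held a region. The median length of these genes was 1195 kb, and 86.0% of all genes of 500 kb or more held one. They held 141 regions over 45.4 Mb, or 3.10 per Mb, against 2.54 per Mb over the genome. Of the 141, 25 were called lower and 6 higher in MT, and their median log2 difference was -0.08. The shares called lower and higher were the same 20.5% and 4.85% over all shared bona fide regions, and 15.2% and 15.0% over all tested regions. The regions in FHIT and LRP1B were called in 1 of 5 and 2 of 5 cases, all lower. The most enriched regions of the list lay in PDE4D, a phosphodiesterase, with 7.68 and 8.91 in WT and 9.08 and 8.41 in MT, in RAD51B, a recombination factor, and in WWOX, an oxidoreductase.

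Genes often used as examples of R-loop formation held none of these regions. Of 18 textbook R-loop genes 0 held a region, and of 19 genes of the SF3a, SF3b and U2 recognition factors 0 did. Their median lengths were 8.08 kb and 20.6 kb. Of 85 cytosolic ribosomal protein genes 1 (RPL37A) held a region and of 74 replication-dependent histone genes 1 (H2BC4). Both regions were classed as intronic. Median gene lengths were 5.548 kb and 0.509 kb, and 2.13% of all protein-coding genes under 20 kb held a region. Counts this small cannot tell these families from other short genes. Of 515 ZNF zinc finger genes 49 held a region (9.51%), with 57 regions, of which 16 were called lower and 1 higher in MT. The shares called lower and higher were 20.5% and 4.85% over all shared bona fide regions and 15.2% and 15.0% over all tested regions. Of 791 snoRNA gene names 9 held one. Of 9 loci that the study followed by DRIP-qPCR, 8 were found as genes, and ZNF90 alone held a region. The list includes SNRPN, a negative control of the study, and leaves out its alpha-satellite and Actin sites. The ZNF90 region had 5.01 and 5.50 in WT and 3.33 and 3.51 in MT (log2 difference -0.77, SE 0.19, limma adjusted p = 0.00263). Of 9 genes followed as SERBP1 targets or controls, 3 held a region. At MTR and ZFR, chosen by the study as SERBP1 targets and R-loop loci, the region was called lower in MT. UQCRB, written UQRCB in the study, was a control described there as not prone to R-loops. Its region had 6.05 and 6.16 in WT and 4.39 and 5.235 in MT, and was not called. These lists were drawn up with the study at hand, and genes absent here had no region that passed in all 4 libraries, which does not show that they lacked R-loops.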

How the data were processed

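DRIP-seq reads were aligned by the authors to GRCh38 with BWA-MEM, mitochondrial reads and duplicates were removed, and narrow peaks were called with MACS2 for each library. The deposited lists give the fold enrichment at the summit, which is a ratio over local background. The deposited −log10 p-value and −log10 q-value of each peak were also used. The highest deposited q was 0.01, although another cut-off is stated, and which setting made the lists is unknown. Read totals are not part of them, so depth is seen only in the local background. The summit and background pileups were solved from the fold enrichment together with −log10 p, to within 0.01, for at least 99.95% of values per library.

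Regions were annotated with GENCODE transcripts and the GRCh38 sequence, whose chromosome names match the lists. Chromosome 8 was left out of the ranked regions and the sequences, but not of counts and gene lists. Regions and lists were chosen with earlier results of these data known. Named were the 5 regions of highest lowest-library value in each class, the 10 genes with most regions and 5 with most per length, the 5 largest and 5 smallest called differences, up to 3 regions per list, and the 3 longest. Some regions and genes that these rules pick are not reported here.

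Tests used limma 3.58.1 in R 4.3.3, with a trend on the mean and Benjamini-Hochberg adjustment, over all 42501 regions with peaks in the 4 untreated libraries. The prior had 24.9 degrees of freedom, so the variance used for a region came largely from this trend. The fit was also run on simulated data, as a check of the code and not of the spread between these libraries. The HEK293T splicing table was not used here. Alternatives to thresholds, overlap, scaling and libraries are given at the end.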

Additional observations from a re-analysis of the deposited data

How the results depend on the processing

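The number of shared bona fide regions was 7400. It dropped to 2462 with a fold enrichment of at least 4, where the promoter share was 16.49% and the median GC content 39.54%. Leaving out each untreated library in turn gave from 10927 to 12248 regions. The count was 12182 without WT replicate 2 and 12248 without MT replicate 1, since fewer libraries had to hold a peak. The promoter share was then 17.06% to 18.36% and the median GC content 39.29% to 40.82%. With removal only where at least 50% of a peak was covered by RNH1-treated peaks, 9892 regions passed and the median GC content was 40.37%. Under a q of 0.001 or lower in every list there were 7321 regions, and 92.7% of the 7400 were found again. The other rules for removal and merging gave 6857 to 7670 regions.

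With a fold enrichment of at least 4 in every untreated library, 5431 tested regions were called, 425 of them shared. Fewer regions were tested, and the share called was also lower, 24.5% of 22182 tested and 17.0% of 2504 shared regions against 30.2% and 25.3%; the cause was not tested. Leaving out each library gave from 1517 to 1811 called shared regions and from 11152 to 12760 called tested regions, with medians from -0.23 to -0.18. Without centring, calls over all tested regions were 9075 higher and 4288 lower, against 6373 and 6445. Adjustment for GC content, chosen after seeing the data, gave 1922 called shared regions. Deviations of the untreated WT replicate 1 and MT replicate 1 from their genotype means had a correlation of -0.002 over the tested regions. The labels do not say whether libraries of the same number shared a preparation. With replicate number as a block, 1876 shared and 12821 tested regions were called. The regions named as extremes of the called differences kept their direction in every alternative in which they were tested. They kept their call in those alternatives that used all untreated libraries. They were picked for large differences, so this was largely fixed in advance. Each had a fold enrichment below 4 in some untreated library, so none was tested in the setting of at least 4. Differing regions named from gene lists or over gene starts were not followed through the alternatives. Pileups near 20 reads and 2 libraries per genotype limit single regions.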

Other observations

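Restriction sites were also found at the edges of single peaks in every deposited DRIP-seq list, treated or not. The share of peak edges within 5 bp of a site ranged from 26.97% (MT replicate 1) to 28.9% (WT replicate 2) over the untreated lists. It ranged from 26.75% (MT replicate 2) to 28.6% (WT replicate 1) over the RNH1-treated lists.

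Neighboring shared bona fide regions lay a median of 243 kb apart, and 67 of 7377 gaps were under 5 kb. The Mb bin chr1:70000001-71000000 held 12 of the regions and chr4:175000001-176000000 held 10, against 2.54 per Mb over the genome.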
